A study of Mus musculus with 24 samples.

Results

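The genes described here make, sort and cut prohormones in the regulated secretory pathway. They comprise the granins Chga, Chgb, Scg2, Scg3 and Vgf, the convertases Pcsk1 and Pcsk2, the carboxypeptidase Cpe, and the convertase partners Scg5 and Pcsk1n. The 10 symbols were found among the 24079 genes of the counts table, and each had 1 row. The set was selected on its function around Pcsk1n, which was itself chosen by its difference between genotypes in lysates of the dorsal striatum. The values of Pcsk1n in that contrast, and in every other comparison that uses the lysates of the dorsal striatum, are therefore given as a description, with no test.

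RNA-seq had been carried out on 24 libraries from 2 brain regions, the nucleus accumbens (Acb) and the dorsal part of the striatum (DS), of rpS6P-/- mice and wild-type littermates, with 3 replicates in each of 8 groups. The rpS6P-/- mice carry a whole-body knockin in which the phosphorylatable serines of ribosomal protein S6 (rpS6) are replaced by alanine, on a mixed C57Bl/6/Sv129/ICR background, and no treatment is given for these libraries. Each lysate gave a whole-lysate library, for the mRNA present, and a library of the heavy polysomal fractions of a sucrose gradient, for mRNA carrying several ribosomes. Males and females were used, every replicate pooled several mice, ages are not given for these libraries, and the Acb was taken from a more anterior section than the DS. The p-values thus measure the spread between pools. The study asked which mRNAs change in abundance or in ribosome loading when rpS6 cannot be phosphorylated.

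Neuropeptides are made as long precursors that are sorted with the granins into dense-core vesicles. There the convertases PC1/3 (Pcsk1) and PC2 (Pcsk2) cut them after pairs of basic residues, and carboxypeptidase E (Cpe) trims the ends. The protein 7B2 (Scg5) is a chaperone of PC2, and proSAAS (Pcsk1n) is an inhibitor of PC1/3. Chromogranins A and B and secretogranins II and III help form the vesicle core, and Vgf is a precursor of several peptides. Striatal projection neurons use this pathway for enkephalin, dynorphin and substance P, and several interneurons use it for somatostatin and neuropeptide Y.

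Transcription of several of these genes is known to respond to cyclic AMP through the element TGACGTCA (CRE), a palindrome. RefSeq promoter sequences (GRCm38.p6) were at hand for 8 of the 10 genes, without Cpe and Vgf, and the 250 bases before each annotated start were searched on both strands. The full element lay in 3 of the 8, namely Chgb, Pcsk1 and Scg2, against 1.77% of 27025 genes with a promoter of the same length. The shorter motif TGACG, which the full element contains, lay in 7 of the 8, the exception being Pcsk1n, against 19.8% of all genes. Other motifs were searched in the same bases. The SP1 box GGGCGG lay in 5 of the 8, against 35.4% of all genes. The TATA box TATAAA lay in 0 of the 8, against 14.3%, and the E-box CACGTG in 0 of the 8, against 6.86%. The windows around the full CRE come from the 3 promoters that hold it. They cover chr2:132781544-132781603 on the plus strand (Chgb), chr13:75089753-75089812 on the plus strand (Pcsk1) and chr1:79440061-79440120 on the minus strand (Scg2), read 5′ to 3′ along the gene, with the CRE in capitals.
Chgb: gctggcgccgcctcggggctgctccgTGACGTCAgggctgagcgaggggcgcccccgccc
Pcsk1: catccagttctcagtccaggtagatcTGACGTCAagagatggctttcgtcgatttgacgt
Scg2: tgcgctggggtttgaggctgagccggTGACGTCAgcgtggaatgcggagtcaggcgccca
The first base of the element stood at -72 in Chgb, -78 in Pcsk1 and -68 in Scg2, counted back from -1 just before the start used. The bases searched for Pcsk1, chr13:75089607-75089856, lie within its RefSeq gene at chr13:75089420-75134861, so that start is downstream of the first base of the gene. The same holds for Scg3. A match of letters says nothing about binding.

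Sequencing gave 9280589 to 34703044 assigned reads per library, with a median of 16678553. The knockin changes codons only, so the counts cannot check the genotype, and Rps6 itself lay between 269 and 496 CPM (read counts scaled to a common library total) over all libraries. These CPM are scaled with the trimmed mean of M-values (TMM) over all 24 libraries. All 11 markers of medium spiny neurons found in the table were detected in every library, with sums of 3470 to 5882 CPM. The 10 markers of cortical excitatory neurons summed to 226-378 CPM in the Acb and 881-1236 CPM in the DS, and the 11 of septal and hypothalamic neurons to 35.3-90.1 and 13.1-25.0 CPM. The noncoding RNA Bc1 took 151600 to 296900 CPM in lysates and 7915 to 39630 CPM in heavy fractions. The pools differed in sex-linked genes. In DS lysates Xist held 1.87, 6.08 and 2.52 CPM in wild-type and 0.532, 4.43 and 0 CPM in rpS6P-/- libraries, in the order of the replicates. Ddx3y held 28.1, 23.1 and 32 CPM in the former and 22.1, 18.1 and 55.9 CPM in the latter. The part of sex in the values of Pcsk1n, which lies on the X chromosome, was not tested.

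The 10 genes are scattered over the genome (RefSeq GRCm38.p6 positions). Pcsk1n lies at chrX:7919822-7924410, Scg2 at chr1:79434366-79440026, Cpe at chr8:64592542-64693109, Scg5 at chr2:113776313-113829091 and Vgf at chr5:137025301-137033351. Scg5 shares chromosome 2 with Pcsk2 and Chgb, at separate loci.

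The members covered a wide range of levels, which are compared between genes as RPKM, the CPM divided by the transcript length in kilobases. Cpe was the highest in all 4 sets of libraries, with a median of 492 RPKM in Acb lysates and 368 RPKM in DS lysates. Over the 12 lysates it ranked 85th of 15902 genes with a level. Pcsk1 was the lowest, at 1.29 RPKM in Acb lysates and 2.15 RPKM in DS lysates, and ranked 10764th. No other member overlapped either of them within a set. The other convertase, Pcsk2, had 46.5 RPKM in Acb lysates and 57.9 RPKM in DS lysates, so that transcripts of PC2 outnumbered those of PC1/3 in every library.

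Between these extremes the order depended on the region and the fraction. In Acb lysates Scg2 came second at 168 RPKM and Scg5 next at 123 RPKM, and their ranges did not overlap. In DS lysates Scg5 came second at 110 RPKM and Chgb next at 80.2 RPKM, and Scg2, at 70.4 RPKM, overlapped Chgb. The next 6 members in Acb lysates, Chgb, Scg3, Chga, Pcsk1n, Pcsk2 and Vgf in that order, lay between 68.7 and 42.5 RPKM, and each overlapped its neighbour. In heavy fractions Scg5 was second in both regions, at 223 RPKM in the Acb and 206 RPKM in the DS, and Vgf was next to last, with 10.7 to 29.9 RPKM in the Acb and 9.66 to 17.1 RPKM in the DS. The plot of levels by library shows these positions.

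**Figure D1:**
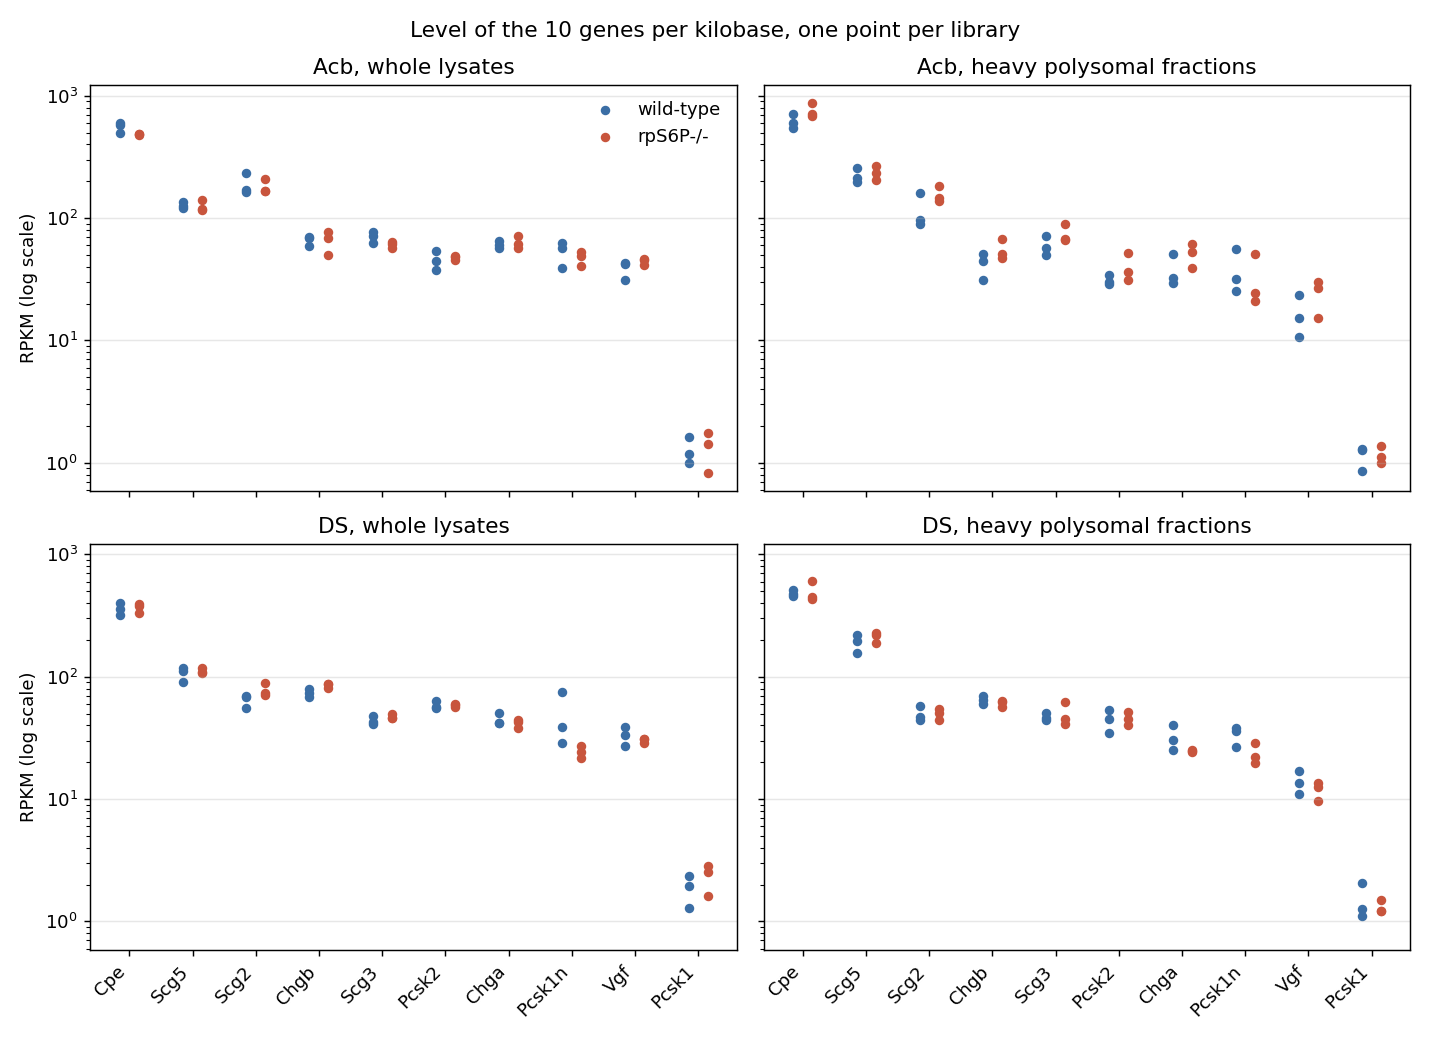
Level of each of the 10 genes in RPKM on a log axis, with 1 point per library, in Acb and DS, whole lysates and heavy polysomal fractions, for wild-type (blue) and rpS6P-/- (red) mice. Cpe stands at the top and Pcsk1 at the bottom of all 4 panels, and Pcsk1n in DS lysates has 1 wild-type library at 75.4 RPKM, apart from the others.

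The levels of most of the 10 genes differed between the regions. In whole lysates 5 of the 9 tested were higher in the Acb than in the DS, against 9.87% of all genes tested, and 2 were lower, against 9.74% (edgeR quasi-likelihood test over 6 libraries a region, Benjamini-Hochberg adjusted p under 0.05). In heavy polysomal fractions 5 of the 10 were higher, against 10.6% of all genes, and 1 was lower, against 12%. The median log2 difference was 0.39 over the 9 in lysates, beside 0.01 over all genes, and 0.40 over the 10 in heavy fractions, beside 0.02. Because these are bulk samples, fewer cells of a type and less RNA per cell cannot be told apart. The share of all genes whose regions do not overlap was not counted, so a lack of overlap is only a description.

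Scg2, the precursor of secretoneurin, differed most among the 10. In lysates its lowest, median and highest values were 408, 424 and 591 CPM in the Acb and 139, 177 and 225 CPM in the DS. In heavy fractions they were 225, 355 and 461 CPM in the Acb and 111, 122 and 145 CPM in the DS. The regions did not overlap in either fraction. The level was 2.60-fold higher in the Acb in lysates (log2 difference 1.38, SE 0.09, adjusted p = 2.73e-21) and 2.72-fold higher in heavy fractions (1.44, SE 0.14, adjusted p = 1.66e-08).

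The other granins split. Chga was higher in the Acb, with 106 to 134 CPM in Acb lysates and 71.9 to 95.5 CPM in DS lysates, which did not overlap (log2 difference 0.52, SE 0.09, adjusted p = 1.33e-05). In heavy fractions its ranges of 55.8 to 117 and 45.6 to 76.6 CPM overlapped, and the difference was 0.65 (SE 0.15, adjusted p = 0.00188). Scg3, a granin-binding member of the family, was also higher, by 0.53 in lysates (SE 0.09, adjusted p = 2.02e-06), where its regions did not overlap, and by 0.48 in heavy fractions (SE 0.13, adjusted p = 0.00694). Vgf was higher by 0.39 in lysates (SE 0.10, adjusted p = 0.00165) and by 0.64 in heavy fractions (SE 0.18, adjusted p = 0.0102), with overlapping regions in both. Without the second wild-type Acb library the heavy-fraction difference of Vgf was 0.46, with an adjusted p of 0.0594.

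Chgb went the other way. Its lysates held 137 to 212 CPM in the Acb and 189 to 241 CPM in the DS, and the regions overlapped. It was lower in the Acb by a log2 difference of -0.28 in lysates (SE 0.09, adjusted p = 0.0129) and -0.36 in heavy fractions (SE 0.13, adjusted p = 0.0415). The call in heavy fractions was lost when any of 9 of the 12 libraries was left out, with adjusted p-values up to 0.158, and the call in lysates was lost without the first rpS6P-/- Acb library (-0.21, adjusted p = 0.0726).

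Among the processing enzymes and their partners, Cpe was higher in the Acb in both fractions. Its lysates held 1005 to 1263 CPM in the Acb and 682 to 855 CPM in the DS, with no overlap (log2 difference 0.51, SE 0.07, adjusted p = 1.15e-08), and the difference in heavy fractions was 0.49 (SE 0.11, adjusted p = 0.00221). Pcsk2 was lower in the Acb, with 178 to 255 CPM in Acb lysates and 260 to 298 CPM in DS lysates, again with no overlap (-0.34, SE 0.08, adjusted p = 0.000983). In heavy fractions its difference was of the same size (-0.35, SE 0.13) with an adjusted p of 0.056, which passed the cutoff under 6 of the other settings listed at the end. Pcsk1 had 40 to 254 reads per library and differed by -0.68 in lysates (SE 0.27, adjusted p = 0.0749) and -0.26 in heavy fractions (SE 0.24, adjusted p = 0.482), so neither value passed the test.

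Scg5 had log2 differences of 0.21 in lysates (SE 0.09, adjusted p = 0.0819) and 0.20 in heavy fractions (SE 0.12, adjusted p = 0.242). Pcsk1n had a log2 difference of 0.56 in lysates, given as a description, where the lowest, median and highest values were 86.4, 112 and 138 CPM in the Acb and 47.3, 61.6 and 165 CPM in the DS. The regions overlapped through 1 wild-type DS library at 165 CPM. Without 1 library the difference ranged from 0.42 to 0.80, the latter without that one. In heavy fractions the difference of Pcsk1n was 0.31 (SE 0.19, adjusted p = 0.268).

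**Figure D2:**
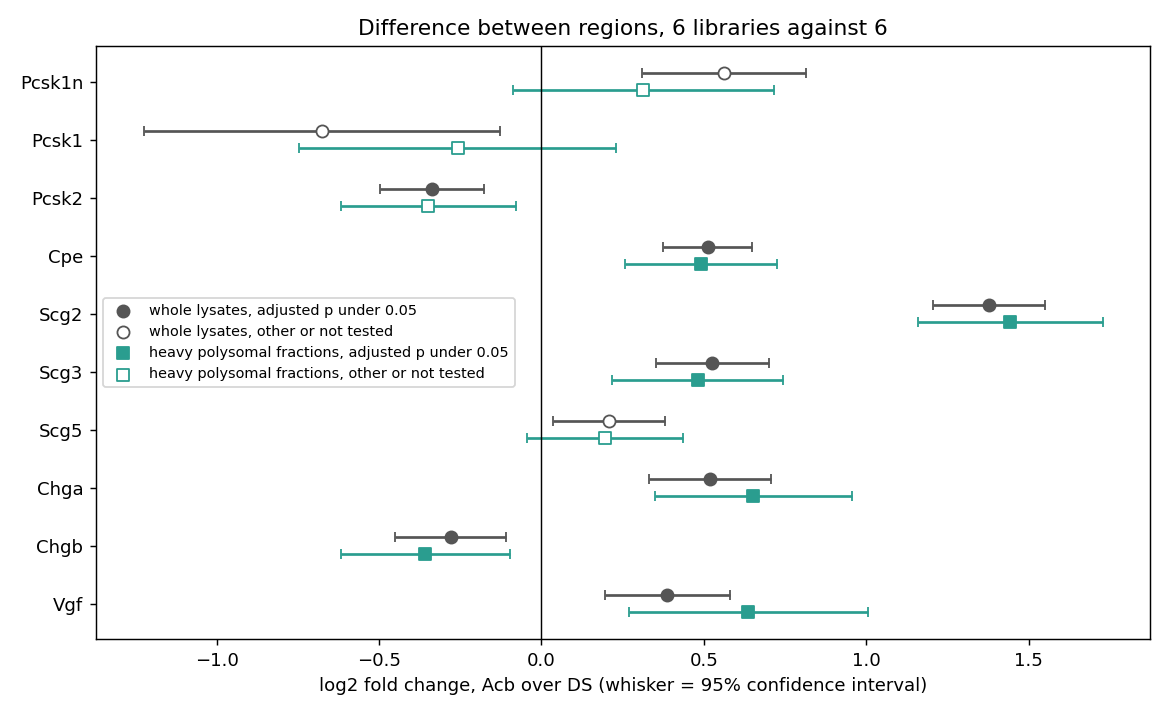
Log2 fold change of each gene between regions (Acb over DS, with 95% confidence intervals), in whole lysates (circles) and heavy polysomal fractions (squares); filled symbols have an adjusted p under 0.05, and Pcsk1n in lysates was not tested. Scg2 lies farthest to the right in both fractions, and Chgb, Pcsk2 and Pcsk1 lie left of 0.

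Markers of other cell types moved between the regions as well. In lysates the 10 cortical excitatory markers had a median sum of 265 CPM in the Acb and 951 CPM in the DS, the 10 astrocyte markers 3114 and 2044 CPM, the 10 markers of striatal interneurons 1536 and 982 CPM, the 11 of medium spiny neurons 3768 and 4756 CPM, the 11 of oligodendrocytes 3971 and 3085 CPM and the 10 of microglia 282 and 172 CPM. The ranges of these 6 sums did not overlap between the regions, except for oligodendrocytes. The septal and hypothalamic list summed to a median of 64.5 CPM in Acb lysates and 17.3 CPM in DS lysates. Of its 11 markers Hcrt had no read in any Acb lysate, and Nr5a1 and Agrp had none in any DS lysate. The 9 choroid plexus markers summed to 50.2 and 16.9 CPM, with Folr1 at 0 in the Acb and Slc4a5 at 0 in the DS. The part of these cells in the differences of the 10 genes was not tested.

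The rest of the pathway held genes of either direction, with shares over all genes of 9.87% higher and 9.74% lower in lysates and 10.6% higher and 12% lower in heavy fractions. Of 33 neuropeptide and prohormone precursors tested in lysates, 15 were higher and 4 lower in the Acb, and of 33 in heavy fractions 13 were higher and 7 lower. Neurotensin (Nts) was higher by 3.41 in lysates (SE 0.19) and 3.75 in heavy fractions (SE 0.17), and Cartpt by 2.64 in lysates (SE 0.21). Cholecystokinin (Cck), which cortical neurons make in large amounts, was lower by -2.89 in lysates (SE 0.15). Of 21 other convertases and processing enzymes, 6 were higher and 2 lower in both fractions, among them Qpct, which forms pyroglutamate at peptide ends (0.83 in lysates, SE 0.22), and the peptide-degrading enzyme neprilysin, Mme (-1.15 in lysates, SE 0.14). Of 28 genes of dense-core vesicle biogenesis and release, 4 were higher and 11 lower in lysates and 4 were higher and 10 lower in heavy fractions. Baiap3, a priming factor of dense-core vesicles, was higher by 3.78 in lysates (SE 0.18) and 3.36 in heavy fractions (SE 0.27), and the zinc transporter Slc30a3 was lower by -2.32 in lysates (SE 0.23).

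The comparison of heavy polysomal fractions with the lysates they came from showed members at both ends. In the Acb 2 of the 10 were higher in heavy fractions, against 16.6% of all genes tested, and 6 were lower, against 15%. In the DS 2 of the 9 tested were higher, against 19.6%, and 6 were lower, against 17.6%. The median log2 difference was -0.42 over the 10 in the Acb and -0.39 over the 9 in the DS, beside 0.06 and 0.03 over all genes. These are relative values, since each library is scaled to its own total adjusted by TMM. A negative value says that the share of the mRNA in heavy fractions was lower than that of most genes. The share of all genes whose fractions do not overlap was not counted, so a lack of overlap is a description here too.

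Scg5 was enriched in heavy fractions in every lysate. In the Acb its lysates held 140 to 169 CPM and its heavy fractions 240 to 320 CPM. In the DS they held 110 to 143 and 188 to 277 CPM. The fractions did not overlap in either region. The log2 difference was 0.86 in the Acb (SE 0.11, adjusted p = 3.38e-08) and 0.87 in the DS (SE 0.10, adjusted p = 5.43e-10), and the 12 single lysates ranged from 0.49 to 1.10. Its coding sequence, at 636 bases, is the shortest of the 10. The next shortest, at 774 bases, is that of Pcsk1n, which was lower in heavy fractions of the Acb. The part of coding length was not tested. Cpe was higher in heavy fractions by 0.39 in the Acb (SE 0.10, adjusted p = 0.00187) and 0.41 in the DS (SE 0.09, adjusted p = 0.000327), with all 12 lysates above 0. When the trend with transcript length was removed, the value of Cpe in the Acb was 0.22 with an adjusted p of 0.0587.

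Vgf stood at the other end. Its Acb lysates held 88.8 to 131 CPM and its heavy fractions 30.3 to 84.8 CPM. In the DS they held 77.5 to 110 and 27.4 to 48.5 CPM. The fractions did not overlap in either region, and all 12 lysates lay below 0, from -1.58 to -0.47. The difference was -1.06 in the Acb (SE 0.15, adjusted p = 3.55e-07) and -1.32 in the DS (SE 0.12, adjusted p = 7.59e-13). The other acidic granins were lower too. Chga differed by -0.50 in the Acb (SE 0.13, adjusted p = 0.00186) and -0.64 in the DS (SE 0.12, adjusted p = 1.10e-05), and Scg2 by -0.46 (SE 0.13, adjusted p = 0.00328) and -0.53 (SE 0.10, adjusted p = 2.98e-05). Chgb differed by -0.44 in the Acb (SE 0.12, adjusted p = 0.00505) and -0.37 in the DS (SE 0.10, adjusted p = 0.00168); its call in the Acb was lost without wild-type lysate 3 (-0.33, adjusted p = 0.0627) or rpS6P-/- lysate 2 (-0.37, adjusted p = 0.0513). Scg3 did not pass the test, with 0.03 in the Acb (95% interval -0.20 to 0.26) and 0.07 in the DS (-0.15 to 0.29).

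Of the convertases, Pcsk2 was lower in heavy fractions by -0.40 in the Acb (SE 0.12, adjusted p = 0.00694) and -0.39 in the DS (SE 0.10, adjusted p = 0.00141). Both calls were lost when the length trend was removed, with -0.24 (adjusted p = 0.0911) and -0.13 (adjusted p = 0.349). The transcript of Pcsk2 is 4723 bases long, the second longest of the 10 after Pcsk1 at 5040 bases. Pcsk1 differed by -0.18 in the Acb (SE 0.28, adjusted p = 0.683) and -0.61 in the DS (SE 0.25, adjusted p = 0.0496). The DS value lay at the cutoff: it was 0.0586 with the replicate block, which pairs the 2 libraries of a lysate, 0.415 with the length trend removed, and above the cutoff in 4 of 6 fits without 1 lysate, up to 0.25.

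Pcsk1n differed by -0.54 in the Acb (SE 0.17, adjusted p = 0.0112). Its value in the DS, a description, was -0.29, and it ranged from -0.48 without wild-type lysate 1 to 0.03 without wild-type lysate 2. Its single lysates spread more than those of any other member, from -1.32 to 0.50 in the Acb and from -1.49 to 0.33 in the DS. The Acb call was lost with DESeq2 (-0.56, adjusted p = 0.115) and without wild-type lysate 1, wild-type lysate 3 or rpS6P-/- lysate 3, with values down to -0.36 and an adjusted p up to 0.126. The interaction of fraction and region was called for 0 of the 9 tested by edgeR, against 2.15% of all genes, and for 0 by DESeq2, against 3.9%. At an unadjusted p under 0.05 it was also 0 of 9, against 15.5%. The 9 interactions ranged from -0.04 for Chgb to 0.45 for Pcsk1, with adjusted p-values of 0.553 and above, and that of Pcsk1n, a description, was -0.21.

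**Figure D3:**
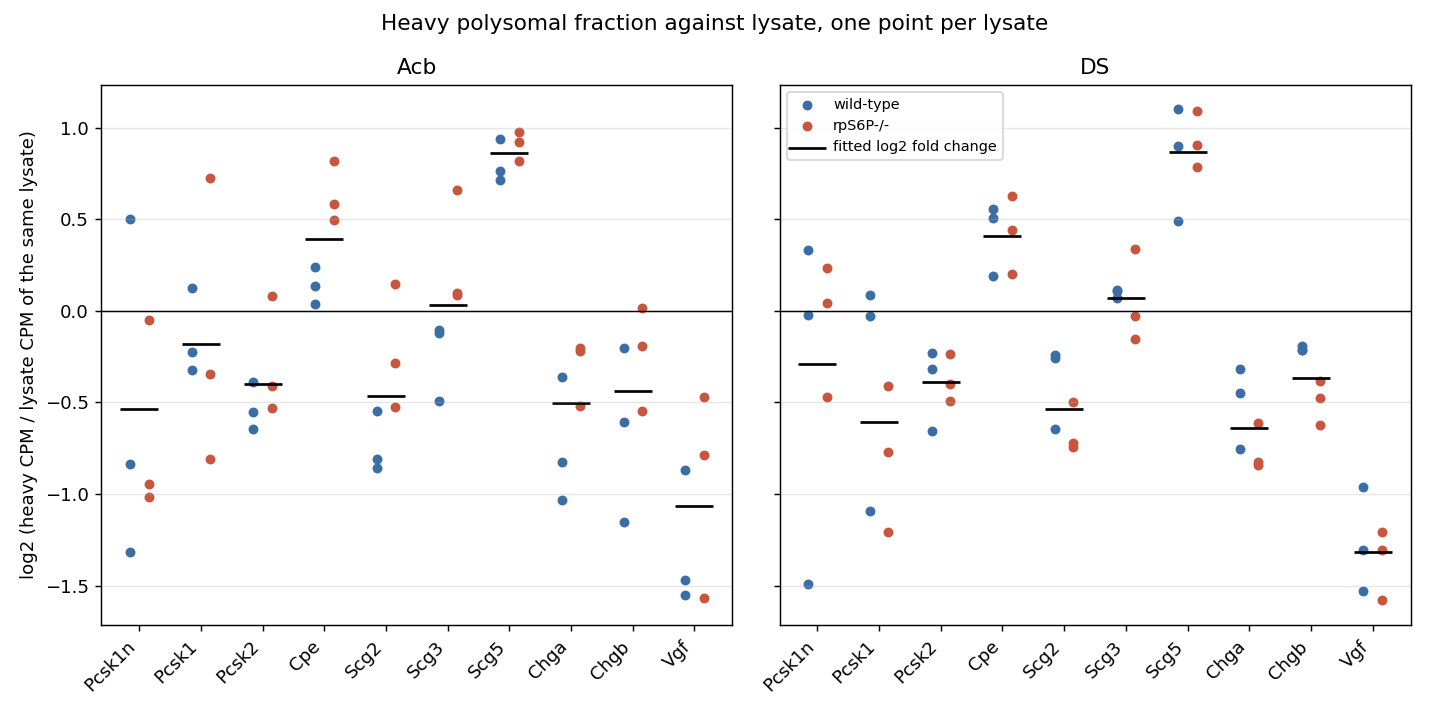
Log2 ratio of the heavy-fraction CPM to the CPM of the same lysate for each gene in Acb and DS, with 1 point per lysate (wild-type blue, rpS6P-/- red, 3 each) and a black bar for the fitted log2 fold change. All points of Scg5 and Cpe lie above 0 and all points of Vgf and Chga below 0 in both regions, while the points of Pcsk1n span more than those of the others.

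In the 3 wider lists the counts stand beside shares over all genes of 16.6% higher and 15% lower in the Acb and 19.6% higher and 17.6% lower in the DS. Of the neuropeptide precursors 11 of 32 were higher in heavy fractions and 2 lower in the Acb, and 13 of 34 were higher and 2 lower in the DS, with medians of 0.57 and 0.85. Among them were Npy in the Acb (1.19, SE 0.12) and Sst in the DS (1.34, SE 0.13). The granin members Chga, Chgb, Scg2 and Vgf, whose products travel in the same vesicles, had the opposite sign to those 2 precursors. Of the vesicle genes 8 of 28 were higher and 4 lower in the Acb and 11 were higher and 9 lower in the DS, with Rab3a at 0.68 in the Acb (SE 0.11) and Unc13a at -1.51 (SE 0.12). Of 21 other processing enzymes 4 were higher and 5 lower in the Acb and 1 was higher and 5 lower in the DS, with carboxypeptidase D (Cpd) at -0.56 in the Acb (SE 0.12).

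The comparison of rpS6P-/- with wild-type mice addressed the question of the study. Pcsk1n was the reason for choosing the set. In DS lysates its wild-type values were 63.2, 165 and 84.5 CPM and its rpS6P-/- values were 47.3, 53.3 and 59.99 CPM. The genotypes did not overlap, the lowest wild-type library lay close to the highest rpS6P-/- library, and the second wild-type library stood far above all others. The means were 104 ± 53.9 CPM and 53.5 ± 6.33 CPM (SD, n = 3), a log2 difference of -0.98, and without the second wild-type library it was -0.47. The library held 2420 reads of Pcsk1n. In it the deviations of the other 9 members from the mean of DS lysates ran from -0.64 to 0.23, beside 1.21 for Pcsk1n.

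The heavy fraction of that same lysate held 58.9 CPM of Pcsk1n, the lowest of the 3 wild-type DS heavy fractions. The other wild-type DS heavy fractions held 79.7 and 83.0 CPM and the rpS6P-/- ones 48.8, 62.8 and 43.2 CPM, with overlap. The difference was -0.47 (SE 0.20, unadjusted p = 0.0229, adjusted p = 0.764). In Acb lysates the wild-type values were 126, 86.4 and 138 CPM and the rpS6P-/- values 116, 89.2 and 108 CPM, and in Acb heavy fractions they were 70.3, 122 and 55.3 CPM and 112, 46.2 and 53.4 CPM. Both pairs overlapped, with differences of -0.16 (SE 0.15, adjusted p = 0.9996) and -0.22 (SE 0.31, adjusted p = 0.727). The latter changed sign without the second wild-type library (0.17) or the second rpS6P-/- library (0.02).

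**Figure D4:**
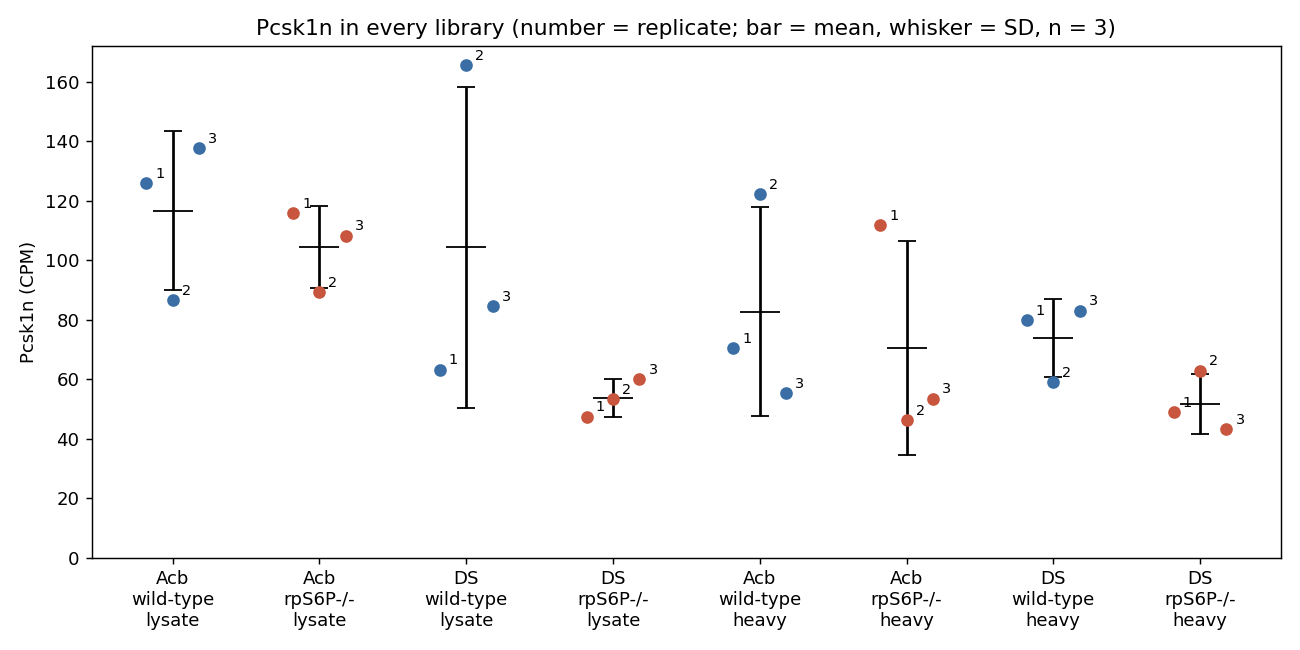
Pcsk1n in CPM in each of the 24 libraries by region, genotype and fraction, with the replicate number beside each point and the mean ± SD of 3 replicates. The second wild-type DS lysate stands at 165 CPM, and the heavy fraction made from it at 58.9 CPM.

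No member that was tested passed the test between genotypes in any of the 4 sets. In DS lysates 0 of 9 were called, against 0.122% of all genes tested, and 1, Scg2, had an unadjusted p under 0.05, against 9.07%. Scg2 held 172, 139 and 175 CPM in wild-type and 179, 225 and 185 CPM in rpS6P-/- lysates, which did not overlap (0.26, SE 0.11, unadjusted p = 0.021, adjusted p = 0.438). Chgb did not overlap there either, with 218, 203 and 189 CPM against 222, 241 and 238 CPM (0.18, SE 0.10, adjusted p = 0.602). In DS heavy fractions 0 of 10 were called, against 0.0440% of all genes, and Pcsk1n alone had an unadjusted p under 0.05, against 6.42%. In Acb lysates 0 of 10 were called, against 0.00650%, and none had an unadjusted p under 0.05, against 2.96%. There Cpe held 1041, 1263 and 1230 CPM in wild-type and 1005, 1034 and 1040 CPM in rpS6P-/- lysates, which did not overlap (-0.20, SE 0.10, adjusted p = 0.9996). Apart from these cases and Pcsk1n in DS lysates, the genotypes of every member overlapped in all 4 sets. The share of all genes without overlap was not counted, so a lack of overlap is only a description here. DESeq2 called 0 of the members tested in each of the 4 sets, against 0.609% of all genes in DS lysates, 0.0944% in DS heavy fractions, 0.0065% in Acb lysates and 5.86% in Acb heavy fractions.

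In Acb heavy fractions 9 of the 10 had a positive difference, with a median of 0.34 beside -0.01 over all genes, and Pcsk1n was the exception. None was called (0 of 10, against 0% of all genes), and 1, Chga, had an unadjusted p under 0.05, against 21.7% of all genes. Chga held 60.6, 95.4 and 55.8 CPM in wild-type and 100, 74.2 and 117 CPM in rpS6P-/- fractions, which overlapped (0.46, SE 0.21, unadjusted p = 0.0453, adjusted p = 0.222). Vgf held 43.0, 66.9 and 30.3 CPM against 75.9, 43.3 and 84.8 CPM (0.55, SE 0.27, adjusted p = 0.244), also overlapping. The members share libraries and were not independent of each other.

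Translational efficiency, the difference between genotypes in the ratio of heavy fraction to lysate, was called for 0 of 10 in the Acb, against 0% of all genes, and for 0 of 9 in the DS, against 0%. At an unadjusted p under 0.05 it was 2 of 10 in the Acb, against 11.9%, and 0 of 9 in the DS, against 4.90%. In the Acb these were Cpe (0.50, SE 0.20, unadjusted p = 0.0161, adjusted p = 0.325) and Scg3 (0.52, SE 0.22, unadjusted p = 0.0252, adjusted p = 0.353). For Pcsk1n the value in the DS, given as a description, was 0.48, and -0.17 without the second wild-type lysate. DESeq2 called 0 members in both regions, against 0.018% of all genes in the Acb and 0% in the DS.

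No member tested passed the adjusted cutoff for a genotype difference that differs between the regions. In heavy fractions 0 of 10 interactions were called, against 0.00592% of all genes, and 1, that of Chga, had an unadjusted p under 0.05, against 13.8% (0.80, SE 0.30, unadjusted p = 0.0116, adjusted p = 0.221). In lysates 0 of 9 were called, against 0.00611%, and 0 had an unadjusted p under 0.05, against 5.11%. DESeq2 called 0 members in either fraction, against 0.954% of all genes in heavy fractions and 0% in lysates. The value for Pcsk1n in lysates, a description, was 0.82, and 0.30 without the second wild-type DS lysate. The interactions share their control libraries with the comparisons above.

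Of the wider pathway, 0 genes of the 3 lists were called between genotypes in any of the 4 sets. At an unadjusted p under 0.05 in Acb heavy fractions, 7 of 28 vesicle genes were higher and 3 lower, 4 of 31 neuropeptide precursors were higher and 6 lower, and 2 of 21 processing enzymes were higher and 1 lower, against 21.7% of all genes in both directions together.

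The values of Pcsk1n moved with properties of the libraries. For each library, a GC trend was taken as the Spearman rho across genes between the GC content of the transcript and the log2 deviation of the gene from the mean of its region and fraction. Over the 24 libraries the deviation of Pcsk1n had a Pearson r of 0.80 and a Spearman rho of 0.80 with the GC trend. Over the 12 lysates the 2 measures were 0.75 and 0.72, and over the 12 heavy fractions 0.86 and 0.85. Without the 2 libraries farthest from the median trend r was 0.53 in lysates and 0.80 in heavy fractions. For the other 9 members r over the 24 libraries lay between -0.24 for Pcsk1 and 0.42 for Chga. Over the 12 lysates alone Scg2 had an r of -0.70 and a rho of -0.74. A length trend was taken in the same way from the transcript length. Over the 24 libraries Pcsk1n had an r of -0.52 with it. The other 9 members lay between 0.10 for Chga and 0.53 for Pcsk2. These are descriptions with no test, since Pcsk1n was chosen on some of these libraries and the 2 libraries of a lysate are not independent. Pcsk1n has a GC content of 57.3%, and the members range from 40.6% for Pcsk1 to 64.1% for Vgf.

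In the DS the GC trend itself separated the genotypes. In lysates it was -0.01 to 0.28 in wild-type and -0.22 to -0.14 in rpS6P-/- libraries, and the second wild-type lysate had the highest trend of the 12 lysates. In heavy fractions it was 0.09 to 0.15 and -0.24 to -0.02. In the Acb the genotypes overlapped in GC trend in both fractions. The length trend separated the genotypes in DS lysates too, at -0.20 to -0.09 in wild-type and 0.09 to 0.18 in rpS6P-/- libraries. In Acb heavy fractions it was -0.31 to -0.08 and -0.02 to 0.29. In Acb lysates and DS heavy fractions the genotypes overlapped in length trend. With the GC trend removed from each library, the difference of Pcsk1n between genotypes was -0.85 in DS lysates and -0.38 in DS heavy fractions, and that of Scg2 in DS lysates was 0.20, beside 0.26. With the length trend removed the difference of Pcsk1n was -0.93 in DS lysates and -0.43 in DS heavy fractions. Over all genes 19 were called between genotypes in DS lysates, 2 with the GC trend removed and 9 with the length trend removed. Without 1 wild-type lysate the count was 56, 2 and 25, in the order of the replicates. Without 1 rpS6P-/- lysate it was 4, 1 and 7. In DS lysates and DS heavy fractions GC trend and genotype cannot be told apart by group. The same holds for length trend and genotype in DS lysates and Acb heavy fractions.

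**Figure D5:**
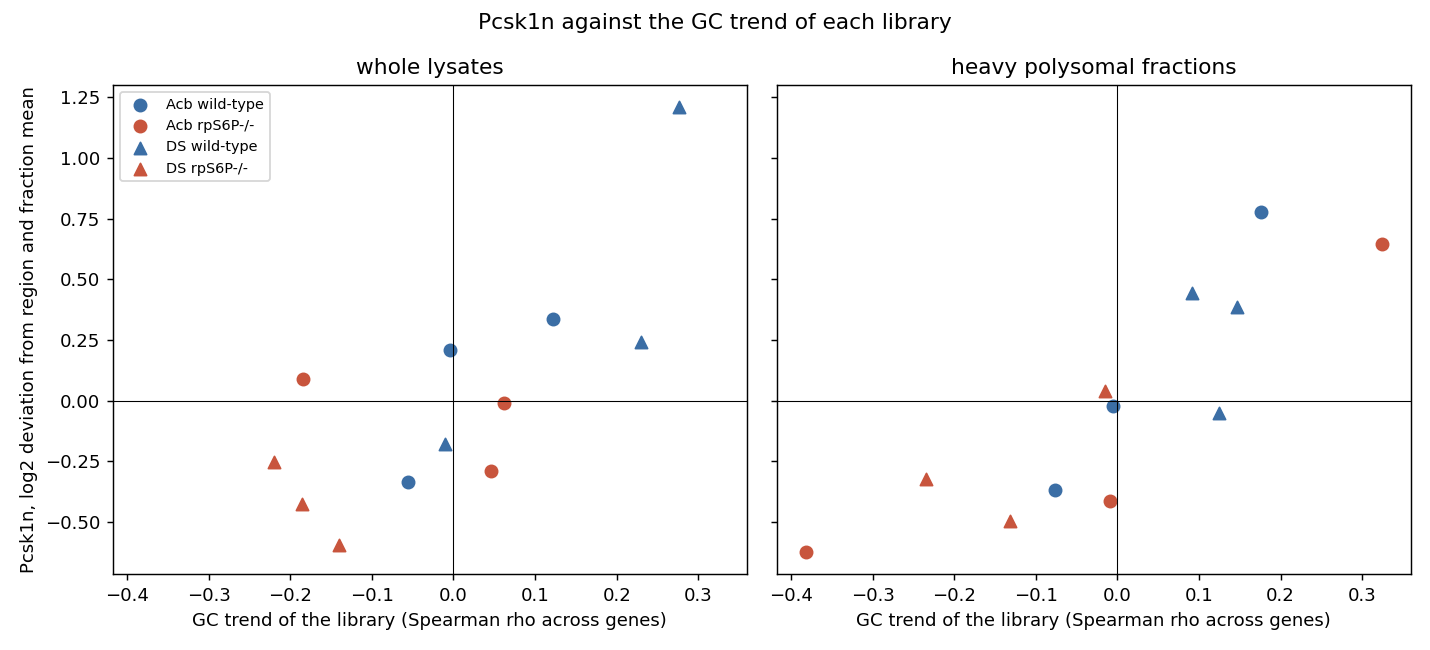
Log2 deviation of Pcsk1n from the mean of its region and fraction against the GC trend of the library (Spearman rho across genes, no unit), for 12 lysates and 12 heavy fractions, Acb as circles and DS as triangles, wild-type blue and rpS6P-/- red. The highest lysate point is the second wild-type DS lysate, at 0.28 on the x axis and 1.21 on the y axis.

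The genes whose levels followed Pcsk1n most closely were not members. Among 11979 genes with at least 50 reads on average, the highest Pearson r of log2 CPM over 24 libraries was that of Car11 (0.83), followed by Metrn (0.75), Rpl27a (0.75), Rpl8 (0.71) and Ninj1 (0.71). For deviations from the mean of each region and fraction the first 5 were Rpl8 (0.89), Ccdc85b (0.88), Matk (0.86), Car11 (0.85) and Tpgs1 (0.84). The 50 genes with the highest r by deviation had a median GC content of 59.96%, beside 50.4% over all genes compared. Their median transcript length was 1413.5 bases, beside 3147.5 bases over all genes compared and 2193 bases for Pcsk1n. The other members mostly moved with each other. By deviation, Cpe and Scg3 had an r of 0.85 and Chga and Vgf of 0.76 over the 24 libraries. The median r with the other 9 was between 0.41 and 0.58 for the 8 members other than Pcsk1n and Pcsk1, and 0.01 and 0.00 for those 2. All these values share the same libraries and their scaling. The r between genes outside the set was not measured as a baseline, so the values do not show that the members move together more than other genes.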

How the data were processed

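Polysome-associated and lysate RNA of 24 libraries had been sequenced by the authors as stranded poly-A libraries. Per the labels and the paper's methods, reads were aligned with TopHat2 2.0.13 and Bowtie2 2.2.3 to mm10 with UCSC gene models, alignments with over 3 mismatches were dropped, and HTSeq 0.6.1p1 counted opposite-strand reads in union mode. The deposited values are raw counts per gene, not normalized. Several sequencing runs per library had been joined because of bacterial contamination, and single runs are not analysed here.

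From these counts, genes were kept if the compared libraries together held at least 15 reads, and edgeR 4.0.16 (TMM, glmQLFit, glmQLFTest) was run in R 4.3.3 on all genes, with Benjamini-Hochberg adjusted p under 0.05 as the cutoff. Folds are rpS6P-/- over wild-type, Acb over DS, and heavy over lysate. Each comparison used the libraries it names. Translational efficiency was an interaction over the 12 libraries of a region. CPM were scaled by TMM over all libraries. Transcript length and GC content came from GENCODE M21 (21208 of 24079 genes matched) and positions and promoters from RefSeq GRCm38.p6. The fit was tested on simulated data. By the sample titles and the paper's methods, the heavy and lysate libraries of a number were taken to come from the same lysate. Their deviations from group means had r between -0.04 and 0.07, so 0 of 12 pairs passed 0.1 and these values do not show the pairing.

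Pcsk1n was left out of the tests that use DS lysates, 3 of them after the data were seen. Members and lists were chosen with earlier results of these data known. The text names all members, at most 3 genes per list and direction (largest fold among called genes with at least 50 reads on average), and the 5 genes most like Pcsk1n by 2 measures. Alternatives were DESeq2 1.42.0, its size factors, no filter, filterByExpr, removal of a length trend, the replicate block and leaving out each library or lysate. Removal of a GC trend was chosen after seeing the data.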

Additional observations from a re-analysis of the deposited data

How the results depend on the processing

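Counting depth was lowest for Pcsk1, with 40 to 254 reads per library. The other members had 338 reads (Vgf) or more in every library. The number of members called was 0 under all settings in the 9 genotype, efficiency and interaction comparisons. It ranged from 6 to 8 for heavy fractions against lysates in the Acb (8 as reported), from 6 to 8 in the DS (8), from 5 to 7 between regions in heavy fractions (6) and from 7 to 8 in lysates (7).

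No value that had passed the test changed sign. The signs of the values below did change, and those of Pcsk1n that use DS lysates had not been tested. Scg3 in heavy fractions against lysates of the Acb was -0.00060 with DESeq2 size factors and with DESeq2, -0.091 with the length trend removed, and -0.071 to 0.089 without 1 lysate. In the DS Scg3 was -0.040 with the length trend removed and -0.019 to 0.12 without 1 lysate, and Pcsk1 in the Acb was 0.019 with the length trend removed. Pcsk1n ranged from -0.48 to 0.033 in the DS without 1 lysate. Without 1 library or lysate, Pcsk1n between genotypes ranged from -0.74 to 0.17 in Acb heavy fractions, in translational efficiency from -0.49 to 0.50 in the Acb and from -0.17 to 0.77 in the DS, and in the interaction of genotype and region in heavy fractions from -0.29 to 0.66. The cause was not tested.

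Pcsk2 between regions in heavy fractions had adjusted p-values of 0.0491 with DESeq2 size factors, 0.0408 with no filter, 0.00887 with the length trend removed, 0.0347 with the GC trend removed, 0.0346 with the replicate block (-0.35) and 0.0341 with DESeq2. Pcsk1 between regions in lysates passed the cutoff in 3 of 12 fits without 1 library. The replicate block, which used the lysate or the shared number, changed no other call of a member than those of Pcsk2 and, in the report, Pcsk1. Libraries with one number in both regions had r between -0.26 and 0.22 (1 of 12 over 0.1), and those with one number in both genotypes between -0.29 and 0.32 (2 of 12), and no source says that these numbers pair samples. Libraries of one lysate also stayed under 0.1, so a low r does not show that samples are unpaired.

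Counts over all genes moved more than those of members: from 0 to 951 with DESeq2 in Acb heavy fractions between genotypes, from 19 to 95 with DESeq2 and 1 without the second rpS6P-/- library in DS lysates, from 7 to 37 with no filter in DS heavy fractions, from 1 to 5 with the replicate block in Acb lysates, from 0 to 107 with no filter in Acb translational efficiency and 17 without the third wild-type lysate in the DS, from 1 to 479 with the replicate block for the interaction with region in heavy fractions and 5 in lysates, and from 374 to 103 with the length trend removed for fraction by region and 818 without the second wild-type DS lysate.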
